A study of Mus musculus with 8 samples.

Results

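The nonclassical MHC class I genes described here are 9 heavy-chain genes taken by symbol: H2-Q4, H2-Q6, H2-Q7 and H2-Q10 of the Q region, H2-T10, H2-T22, H2-T23 and H2-T24 of the T region, and H2-M3 of the M region. They are 9 of the 23366 genes in the expression table, and all 9 passed the low-count filter that left 11721 genes for testing. They were measured by RNA sequencing of pancreatic beta cells that were sorted from NOD mice aged 8 to 10 weeks. NOD is an inbred strain prone to autoimmune diabetes. The study's labels name the sorted populations bottom and top, with 4 libraries each and no treatment, and do not say what the sort was gated on. Bottom 1, bottom 2, top 1 and top 2 belong to batch 1, and bottom 3, bottom 4, top 3 and top 4 to batch 2. Each library started from about 1000 cells, and the labels do not tie the libraries to animals. The p-values therefore cover the spread from library to library, part or all of which may be technical.

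A class I molecule is a heavy chain joined to the light chain beta-2-microglobulin. Classical heavy chains, H2-K1 and H2-D1 in the mouse, show peptides from inside the cell to CD8 T cells. Nonclassical heavy chains vary less between individuals, are usually made at lower levels, and are read by natural killer cells and by unusual T cells as well as by CD8 T cells. H2-Q6 and H2-Q7 belong to the group of genes for Qa-2, a molecule tethered to the membrane by a lipid anchor, and H2-Q10 encodes a secreted heavy chain made chiefly in liver. H2-T23 encodes Qa-1, which shows leader peptides of other class I chains to CD94/NKG2A receptors. H2-T10 and H2-T22 products are ligands of a set of gamma-delta T cells, and H2-M3 shows formylated peptides of bacteria and mitochondria. Interferons raise class I transcription through interferon-response elements, and the transactivator NLRC5 acts on class I promoters.

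All 9 genes lie on chromosome 17. In GENCODE M21 on build GRCm38, the Q genes lie on the plus strand from H2-Q4 at chr17:35379617-35385290 through H2-Q6 at chr17:35424850-35430055 and H2-Q7 at chr17:35439155-35443773 to H2-Q10 at chr17:35470089-35474563. The T genes lie on the minus strand, H2-T24 at chr17:36005695-36020560, H2-T23 at chr17:36029773-36032855, H2-T22 at chr17:36037128-36042747 and H2-T10 at chr17:36115876-36121465. H2-M3 is at chr17:37270220-37274484 on the plus strand. The annotation lists H2-T10 as a polymorphic pseudogene and the other 8 as protein coding. These positions describe the C57BL/6 reference, whereas the authors' values were made on build mm9 and NOD mice carry another MHC haplotype, so no position was read from the deposited values.

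Some of these genes are near copies, which decides how far a single value can be trusted. The coding sequences of H2-T10 and H2-T22 were 96.3% identical and shared 33.0% of their stretches of 50 bases, and those of H2-Q6 and H2-Q7 were 95.4% identical and shared 30.5% of the H2-Q6 stretches. H2-Q8, H2-Q9 and H2-T9 were not compared, so stretches shared with them are not counted here. H2-T23 and H2-T24, neighbours in the T region, were only 58.1% identical, and H2-M3 was 57.6% to 72.1% identical to the other members. A read from a shared stretch fits several genes, and RSEM, the authors' counting tool, divides such reads by an estimate. The coding window of 60 bases in which H2-Q6 departed most from H2-Q7 (bases 76 to 135 of both coding sequences) shows what a read must cover to tell them apart. Capitals mark the 10 bases that differ from H2-Q7.
H2-Q7: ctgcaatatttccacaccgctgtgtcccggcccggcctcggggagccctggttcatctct
H2-Q6: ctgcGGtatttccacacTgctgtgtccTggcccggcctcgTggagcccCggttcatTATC

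The same comparison for H2-T10 and H2-T22 gave bases 665 to 724, where capitals mark the 7 bases of H2-T22 that differ from H2-T10.
H2-T10: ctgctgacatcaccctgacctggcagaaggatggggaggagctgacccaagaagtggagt
H2-T22: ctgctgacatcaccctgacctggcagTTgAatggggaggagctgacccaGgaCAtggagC

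At the other extreme stands the window most alike over all 9 members, in which 7 of 60 positions vary at all. H2-Q6 and H2-Q10 were identical to H2-Q7 there, and the 4 genes printed span the range, with capitals where a base differs from H2-Q7.
H2-Q7: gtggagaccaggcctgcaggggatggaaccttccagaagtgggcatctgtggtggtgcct
H2-T23: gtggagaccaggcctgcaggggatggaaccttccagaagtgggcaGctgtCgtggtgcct
H2-T24: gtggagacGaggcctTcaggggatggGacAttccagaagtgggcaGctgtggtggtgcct
H2-M3: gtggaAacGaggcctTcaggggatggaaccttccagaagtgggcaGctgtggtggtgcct
Near-identical genes are therefore also given as sums below.

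The libraries held 6657639 to 11262368 expected counts each, and the 9 genes together took 0.0253% to 0.0897% of them. Levels below are CPM, counts divided by the library's total and by a TMM factor, which balances library composition. Beta-cell markers summed to 38809 to 81395 CPM in bottom libraries and 344218 to 505831 CPM in top libraries, with the beta-cell factor Mafa listed at 0 in all 8. Delta-cell markers summed to 33403 to 57801 CPM in bottom libraries and 2649 to 5296 CPM in top libraries, and PP-cell markers to 11342 to 91991 CPM in bottom libraries and 1196 to 2356 CPM in top libraries. By these sums the bottom libraries, labelled beta cells, held less RNA of beta-cell markers and more of delta- and PP-cell markers than the top libraries, with no overlap. Ins2 was the largest part of the beta-cell sum, at 22277 to 57769 CPM in bottom libraries and 257174 to 407136 CPM in top libraries. Ins1, Iapp, G6pc2, Slc2a2, Ucn3, Slc30a8 and Pcsk1 were also lower in bottom without overlap. Pdx1 overlapped, at 2.63 to 5.34 CPM in bottom libraries and 1.36 to 7.62 CPM in top libraries, and so did Nkx6-1. Alpha-cell markers were high in both populations and overlapped, at 29902 to 145480 CPM in bottom libraries and 67640 to 140183 CPM in top libraries. In bottom 1 and bottom 2 the alpha-cell sum exceeded the beta-cell sum. In such bulk samples, fewer cells of a type and less RNA per cell cannot be told apart. Immune cells carry much class I RNA, and 8 pan-leukocyte markers summed to 5.84 to 8.09 CPM in bottom libraries and 2.54 to 6.18 CPM in top libraries. T-cell markers summed to 13.3 to 18.0 CPM in bottom libraries and 3.52 to 8.81 CPM in top libraries. Most of that sum was Lck, at up to 12.9 CPM in bottom libraries and 4.46 CPM in top libraries, and Cd8a, at up to 8.80 and 2.73 CPM. Cd3e was at most 0.109 CPM in bottom libraries and 0.116 CPM in top libraries, Cd3g at most 0.185 and 0.377 CPM, and Cd3d overlapped between the populations. The B-cell sum lay the other way from the T-cell sum, at 0.218 to 0.843 CPM in bottom libraries and 3.52 to 14.7 CPM in top libraries, with Cd79a at up to 13.8 CPM in top libraries. Of 10 macrophage and dendritic-cell markers, 6 were at 0 in every library, Csf1r and Cd68 among them, and the sum was 0.328 to 3.02 CPM in bottom libraries and 1.02 to 3.41 CPM in top libraries. Endothelial markers summed to 9.39 to 248 CPM in bottom libraries and 0.124 to 9.21 CPM in top libraries, and fibroblast markers to 3.28 to 769 CPM in bottom libraries and 0.251 to 12.4 CPM in top libraries. The part of these other cells in the class I differences was not tested.

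Per kilobase of coding sequence, H2-T23 stood first, at a mean of 196 CPM per kb in bottom libraries and 158 CPM per kb in top libraries. H2-Q7 followed at 116 CPM per kb in bottom libraries and 83.3 CPM per kb in top libraries, then H2-T10 at 67.1 CPM per kb in bottom libraries and 55.9 CPM per kb in top libraries. H2-M3 averaged 60.3 and H2-Q4 49.2 CPM per kb in bottom libraries, against 42.3 and 34.5 CPM per kb in top libraries, and H2-Q6 averaged 35.5 CPM per kb in bottom libraries and 19.8 CPM per kb in top libraries. The lowest were H2-Q10 at 18.2 CPM per kb in bottom libraries and 10.8 CPM per kb in top libraries, H2-T24 at 10.1 CPM per kb in bottom libraries and 4.89 CPM per kb in top libraries, and H2-T22 at 8.44 CPM per kb in bottom libraries and 1.05 CPM per kb in top libraries. Neighbours in this order had overlapping ranges over libraries in both populations, so the order is a description.

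Between the populations, none of the 9 genes passed the test, although every fitted fold change was positive, that is, higher in bottom. The test was edgeR's quasi-likelihood test with batch as a covariate and Benjamini-Hochberg adjustment over all 11721 genes, with an adjusted p under 0.05 as the threshold. It called 52 genes in either direction, 0.444% of those tested, and 33 of them, 0.282%, were higher in bottom. No member reached an unadjusted p under 0.05, which 10.3% of all genes did. The median log2 fold change of bottom over top was 0.75 over the 9 genes and 0.0033 over all genes, of which 50.1% were positive. These 9 values are not independent, since members share reads. No member had populations whose libraries did not overlap, against 7.22% of all genes.

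**Figure D1:**
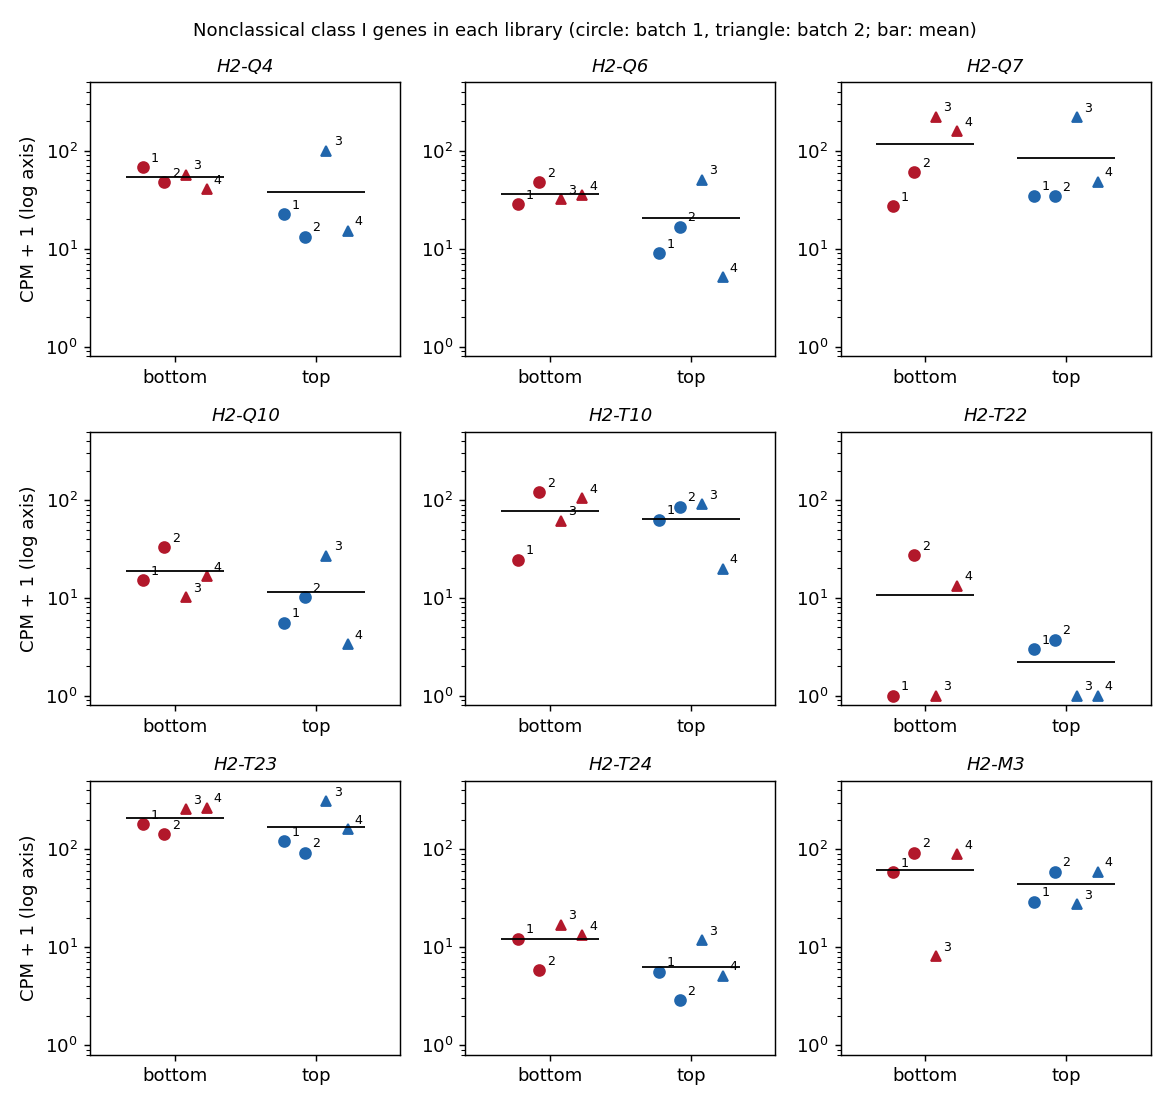
Level of each of the 9 genes in each library, as CPM + 1 on a log axis, with bottom libraries at left and top libraries at right. Circles are batch 1, triangles batch 2, numbers name the library and bars are the population means; top 3 lies at or near the bottom libraries for H2-Q4, H2-Q6, H2-Q7 and H2-Q10, apart from the other top libraries.

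Among the Q genes, H2-Q4 had 67.2, 46.8, 56.0 and 39.7 CPM in bottom 1 to 4, against 21.4, 12.3, 98.9 and 14.3 CPM in top 1 to 4. All 4 bottom libraries stood above top 1, top 2 and top 4, and top 3 stood above every other library. The means were 52.4 ± 11.9 CPM in bottom libraries and 36.7 ± 41.6 CPM in top libraries (SD, n = 4 each), and the log2 fold change was 0.75 (SE 0.68, 95% interval -0.78 to 2.28, edgeR adjusted p = 0.804). H2-Q6 showed the same arrangement, with 27.6, 46.7, 31.0 and 34.0 CPM in bottom 1 to 4 and 8.06, 15.8, 49.7 and 4.13 CPM in top 1 to 4. Its log2 fold change was 0.95 (SE 0.75, 95% interval -0.73 to 2.63, edgeR adjusted p = 0.768).

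H2-Q7, the most abundant of the 4 Q genes per kilobase of coding sequence, split by batch among the bottom libraries. It had 26.3 and 59.4 CPM in bottom 1 and bottom 2 of batch 1, and 223 and 157 CPM in bottom 3 and bottom 4 of batch 2. The top libraries had 33.8, 33.5, 220 and 47.2 CPM in top 1 to 4, so the high libraries were bottom 3, bottom 4 and top 3, all of batch 2, while top 4 of that batch was low. The log2 fold change was 0.43 (SE 0.47, 95% interval -0.63 to 1.49, edgeR adjusted p = 0.854). H2-Q10 had 14.1, 32.1, 9.16 and 15.8 CPM in bottom 1 to 4 and 4.60, 9.17, 26.1 and 2.38 CPM in top 1 to 4, and its log2 fold change was 0.77 (SE 0.92, 95% interval -1.28 to 2.82, edgeR adjusted p = 0.864). A list of 5 markers of liver, the organ in which H2-Q10 is chiefly made, summed to 902 to 8677 CPM in bottom libraries and 2675 to 4849 CPM in top libraries. Of these, albumin was at most 0.284 CPM in bottom libraries and 0 in top libraries, Ttr, which alpha cells also express, ran from 900 to 4158 CPM in bottom libraries and from 2673 to 4772 CPM in top libraries, and Apoa1, which the intestine also expresses, reached 7125 CPM in bottom libraries and 483 CPM in top libraries. Their part in the H2-Q10 level was not tested.

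H2-Q6 made up 51.2%, 44.0%, 12.2% and 17.8% of the H2-Q6 and H2-Q7 counts in bottom 1 to 4, and 19.3%, 32.0%, 18.4% and 8.13% in top 1 to 4. The division between the pair therefore varied widely between libraries of one population, and how much of that is the counting tool's estimate was not tested. Their sum averaged 151 ± 88.6 CPM in bottom libraries and 103 ± 111 CPM in top libraries (SD, n = 4 each), with a log2 fold change of 0.64 (edgeR adjusted p = 0.736, SE 0.47). The 4 Q genes together had 135, 185, 319 and 246 CPM in bottom 1 to 4, against 68.0, 70.8, 395 and 68.1 CPM in top 1 to 4. In CPM, top 1, top 2 and top 4 thus lay close together and under every bottom library, and top 3 lay above every bottom library. By share of the library's counts, top 3 lay under bottom 3 for this sum. The log2 fold change of this sum was 0.75 (edgeR adjusted p = 0.690, SE 0.48).

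**Figure D2:**
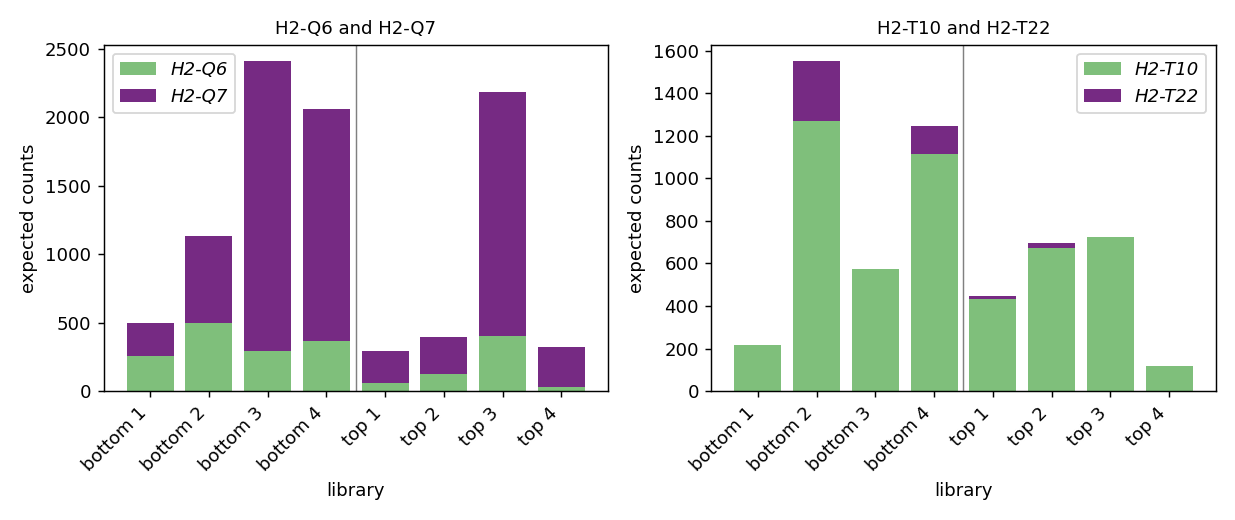
Expected counts of H2-Q6 and H2-Q7 (left) and of H2-T10 and H2-T22 (right) in each library, stacked, with bottom libraries left of the line and top libraries right of it. H2-Q6 and H2-Q7 together are high in bottom 3, bottom 4 and top 3, and H2-T22 is seen in 4 of the 8 libraries, at up to 280 counts.

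In the T region, H2-T10, whose product is a gamma-delta T cell ligand, had 23.6, 119, 60.4 and 103 CPM in bottom 1 to 4 and 62.0, 84.5, 89.4 and 18.9 CPM in top 1 to 4. The populations overlapped almost fully, the lowest library being top 4 and the second lowest bottom 1. Its log2 fold change was 0.28 (SE 0.60, 95% interval -1.06 to 1.62, edgeR adjusted p = 0.928).

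H2-T22 was estimated at 0, 280, 0 and 133 counts in bottom 1 to 4 and at 14.5, 21.6, 0 and 0 counts in top 1 to 4. In CPM this is 26.2 in bottom 2 and 12.3 in bottom 4, against 2.01 in top 1 and 2.76 in top 2. A count of 0 allows up to 3 counts, which is 0.321 CPM in bottom 1, 0.312 CPM in bottom 3, 0.370 CPM in top 3 and 0.475 CPM in top 4, for counting error only. Those 4 libraries held 119 to 723 counts of H2-T10, so H2-T22 was listed at 0 where its near copy was counted. Such a 0 may be the counting tool's division of shared reads, in which case the 3 counts do not bound the level of H2-T22. Its share of the pair was 18.0% in bottom 2 and 10.6% in bottom 4, against 3.25% in top 1 and 3.11% in top 2. The fitted log2 fold change, 4.37 (SE 2.41, 95% interval -1.04 to 9.78, edgeR adjusted p = 0.599), rests on those few libraries and depends on the prior count. It was 2.21 without bottom 4 and 5.63 without bottom 1, and limma-trend gave 1.41. The sum of H2-T10 and H2-T22 averaged 86.1 ± 54.5 CPM in bottom libraries and 64.9 ± 32.8 CPM in top libraries (SD, n = 4 each), with a log2 fold change of 0.43 (edgeR adjusted p = 0.892, SE 0.62).

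H2-T23, the Qa-1 gene, was the best measured member, with 730 to 2858 counts in a library. It had 180, 142, 254 and 265 CPM in bottom 1 to 4, against 120, 91.7, 308 and 160 CPM in top 1 to 4. Within each batch and leaving top 3 aside, both bottom libraries stood above the top libraries. Top 3 was the highest of all in CPM, but not by share of the library's counts. The means were 210 ± 59.0 CPM in bottom libraries and 170 ± 96.1 CPM in top libraries (SD, n = 4 each), and the log2 fold change of 0.38 had the narrowest interval of the 9 genes (SE 0.28, 95% interval -0.26 to 1.01, edgeR adjusted p = 0.743).

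H2-T24, the member least like the others in coding sequence, had 11.3, 4.86, 15.9 and 12.2 CPM in bottom 1 to 4 and 4.60, 1.88, 10.8 and 4.13 CPM in top 1 to 4. Its counts ran from 14.6 in top 2 to 151 in bottom 3. All bottom libraries exceeded top 1, top 2 and top 4, and bottom 2 lay under top 3. The log2 fold change was 1.11 (SE 0.78, 95% interval -0.64 to 2.87, edgeR adjusted p = 0.716). The sum of H2-T23 and H2-T24 had a log2 fold change of 0.41 (edgeR adjusted p = 0.716, SE 0.29).

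H2-M3, the formyl-peptide presenter, followed another arrangement. It had 57.1, 91.3, 7.06 and 88.4 CPM in bottom 1 to 4 and 28.1, 58.3, 26.6 and 58.1 CPM in top 1 to 4. Bottom 3 was the lowest library and held 67.5 counts, and top 3 ranked 7 of 8. The means were 61.0 ± 39.1 CPM in bottom libraries and 42.8 ± 17.8 CPM in top libraries (SD, n = 4 each), with a log2 fold change of 0.48 (SE 0.68, 95% interval -1.04 to 2.00, edgeR adjusted p = 0.890).

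An exact two-sided permutation test over the 70 relabellings of the 8 libraries, batch ignored, on each gene's or sum's share of the expected counts, gave p between 0.0571 for H2-T24 and 0.429 for H2-T22. Over these 13 tests the adjusted values were 0.297 to 0.429, and the smallest p these relabellings allow is 0.0286. Relabelling inside each batch, added after the data were seen, leaves 36 arrangements and a smallest exact p of 0.0556, which H2-T23, H2-T24, the sum of both and the sum of H2-Q6 and H2-Q7 reached, and the adjusted values over the 13 permutation tests were 0.181 to 0.500.

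Top 3 carried the highest top value for 7 of the 9 genes, H2-T22 and H2-M3 being the exceptions, where 28.8% of all genes tested had their highest top value in that library. In CPM it exceeded every other library for H2-Q4, H2-Q6 and H2-T23. CPM rests on the TMM factors, which were 0.874 in top 3, 1.32 in bottom 3 and 1.25 in bottom 4. By share of the library's counts, H2-Q4 stayed highest in top 3, but H2-Q6 was higher in bottom 2 and H2-T23 in bottom 3 and bottom 4. The 9 genes together took 0.0723% of counts in top 3, 0.0859% in bottom 3 and 0.0897% in bottom 4. For 3 of the 9 genes, H2-Q4, H2-Q6 and H2-T24, every bottom library stood above top 1, top 2 and top 4, against 5.38% of all genes. Top 3 was set aside for this count because the members were high in it, so the 5.38% is not a like background. With top 3 kept, no member separated the populations. A fit without top 3, singled out among the leave-one-out alternatives after its values were seen, gave H2-Q4 a log2 fold change of 1.74, a 3.33-fold difference (95% interval 0.69 to 2.78 on the log2 scale, edgeR unadjusted p = 0.00489, adjusted p = 0.209). In that fit H2-Q6 had 2.12 (edgeR adjusted p = 0.268), H2-Q10 1.97 (0.388), H2-T24 1.47 (0.614), H2-Q7 0.95 (0.549) and H2-T23 0.63 (0.396). H2-T10 had 0.71 (0.786), H2-T22 3.54 (0.684) and H2-M3 0.33 (0.921). The sum of the 4 Q genes had a log2 fold change of 1.52 (edgeR adjusted p = 0.158). H2-Q4, H2-Q6, H2-Q10 and H2-T23 had an unadjusted p under 0.05 higher in bottom, which 7% of the 12423 genes tested then had, and no member passed the adjusted threshold, which 0.225% of genes did. The reason why top 3 stands apart was not tested.

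**Figure D3:**
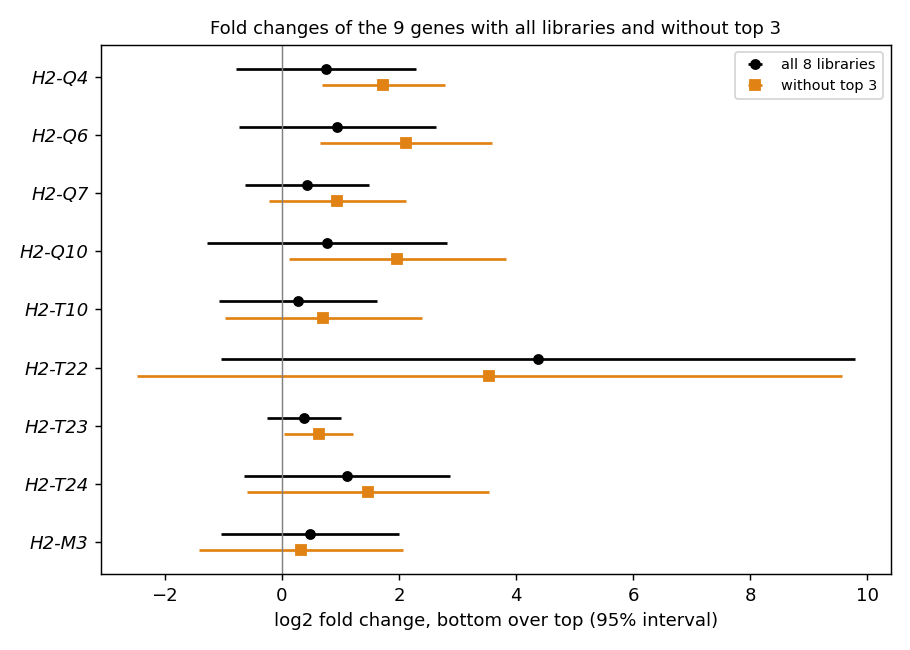
Log2 fold change of bottom over top for each gene from edgeR, with all 8 libraries (circles) and without top 3 (squares). The 95% intervals were built from the edgeR fit and are not an edgeR output. Every interval with all libraries includes 0; without top 3 the point moves up for 7 genes and down for H2-T22 and H2-M3.

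Within batch 1 alone, the log2 fold changes were 1.73 for H2-Q4, 1.62 for H2-Q6, 0.33 for H2-Q7 and 1.72 for H2-Q10. Within batch 2, which holds top 3, they were -0.23, 0.29, 0.52 and -0.18 for the same genes in the same order. H2-T23 had 0.58 in batch 1 and 0.16 in batch 2, H2-T24 had 1.28 and 0.93, H2-M3 had 0.76 and 0.19, and H2-T10 had -0.06 and 0.61. H2-T22 had 2.43 in batch 1 and did not pass the filter in batch 2. No member passed the threshold within either batch, where only 2 of 12075 genes in batch 1 and 2 of 12234 genes in batch 2 did. The batch by population interaction gave edgeR adjusted p of 0.796 to 0.991 over the 9 genes, and that test called 0% of all genes, with 885 at an unadjusted p under 0.05.

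The genes that the nonclassical heavy chains work with were examined in the same fit, and none was called in either direction. That fit called 0.444% of all genes tested, so no call among lists of this size is near that share. H2-D1, a classical heavy chain, had 1119, 1299, 1730 and 1267 CPM in bottom 1 to 4, against 481, 417, 1499 and 393 CPM in top 1 to 4. Every bottom library stood above top 1, top 2 and top 4, and top 3 lay among the bottom libraries, with a log2 fold change of 1.05 (SE 0.39, edgeR unadjusted p = 0.0231, adjusted p = 0.368). H2-K1 had a log2 fold change of 0.88 (edgeR adjusted p = 0.520), and B2m, the light chain gene, 0.53 (edgeR adjusted p = 0.768). B2m was itself highest in top 3, at 5827 CPM, with 2139 to 5018 CPM in bottom libraries and 979 to 1869 CPM in the other top libraries.

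Peptide-loading genes, which fill the groove of most class I molecules, were positive in 5 of 8, with a median log2 fold change of 0.17 and Tap1, a subunit of the peptide transporter, at 0.38 (edgeR adjusted p = 0.927). The chaperone gene Calr had the smallest p of that list in the other direction, with 390 to 507 CPM in bottom libraries and 667 to 793 CPM in top libraries, no overlap, and a log2 fold change of -0.76 (SE 0.20, edgeR unadjusted p = 0.00401, adjusted p = 0.190). All 5 immunoproteasome genes were positive, with a median of 0.74. Of 15 tested regulators, 13 were positive, with a median of 0.47. Over all genes tested, 50.1% were positive, with a median of 0.0033. Nlrc5, the class I transactivator, had 20.4, 14.7, 64.2 and 82.4 CPM in bottom 1 to 4 and 17.7, 2.76, 171 and 11.1 CPM in top 1 to 4. It was thus highest in top 3, bottom 4 and bottom 3. H2-Q7 was high in the same libraries. H2-Q4 was second highest in bottom 1, H2-Q6 was second highest in bottom 2 and H2-Q10 was highest there. The part of Nlrc5 in these levels was not tested. Of the 11721 genes tested, 4280 had their highest value in one of top 3, bottom 3 and bottom 4. The log2 fold change of Nlrc5 was 0.23 (edgeR adjusted p = 0.959), while Irf1, a transcription factor of the interferon response, had 0.18 (edgeR adjusted p = 0.959). Of 25 interferon target genes tested, 18 were positive, with a median of 0.46, and 23 had their highest top value in top 3. Gbp2, a guanylate-binding protein gene, had 136, 93.1, 364 and 375 CPM in bottom 1 to 4 and 74.1, 53.8, 683 and 23.2 CPM in top 1 to 4. Top 3 was thus the highest top library for these targets as for the 4 Q genes, and the part of an interferon response in the class I levels was not tested.

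**Figure D4:**
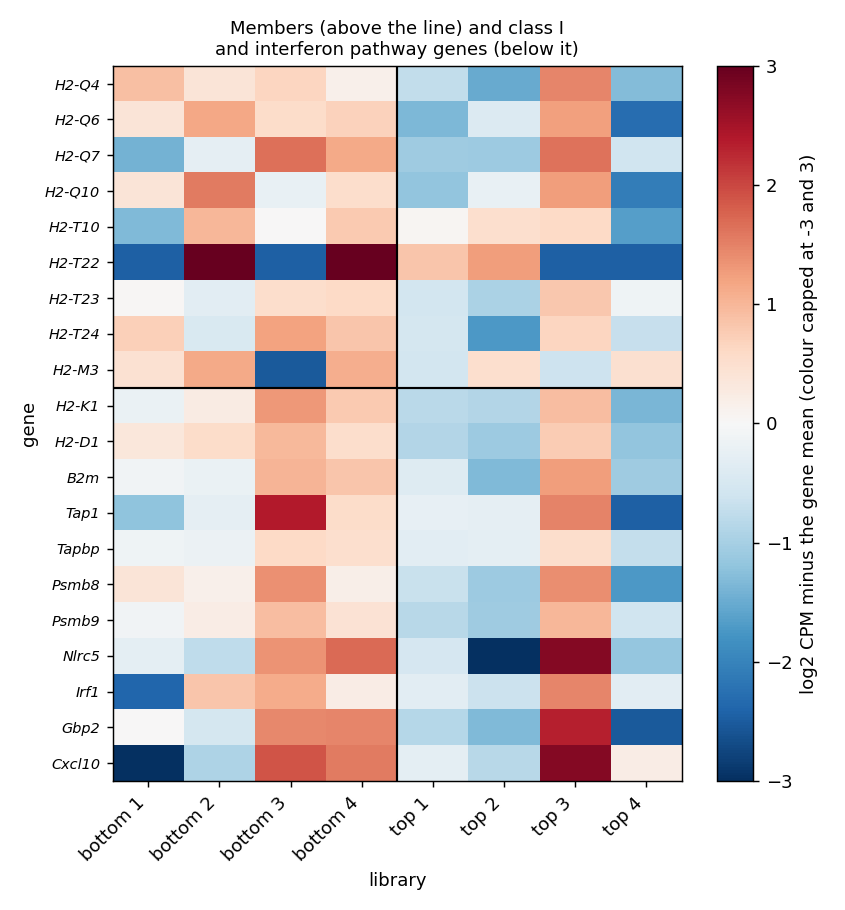
Log2 CPM of each gene minus its own mean, for the 9 genes above the horizontal line and 11 class I and interferon pathway genes below it, in bottom libraries left of the vertical line and top libraries right of it. Red is above the gene's mean and blue below, with colour capped at -3 and 3; top 3 is red for most genes, and H2-T10, H2-T22 and H2-M3 have patterns of their own.

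Of 19 other Q, T and M region genes in the table, 8 passed the filter, all had a positive log2 fold change with a median of 1.59, and none was called. Of all genes tested, 50.1% were positive and 0.444% were called, and these 8 values are not independent where genes share reads. H2-Q9, another gene of the Qa-2 group, had 0.769, 15.4, 40.0 and 57.5 CPM in bottom 1 to 4 and 1.34, 2.31, 4.47 and 0 CPM in top 1 to 4, and a log2 fold change of 3.31 (edgeR unadjusted p = 0.0367, adjusted p = 0.430). H2-Q8 was listed at 0 in all 8 libraries. Whether the counting tool's division of shared reads shaped the H2-Q8 and H2-Q9 values was not tested. With H2-Q8 and H2-Q9 added to H2-Q6 and H2-Q7, a sum chosen after the values were seen, the log2 fold change was 0.81 (edgeR adjusted p = 0.645). Of 17 other class I-like genes in the table, which lie outside these regions, 2 passed the filter, the iron regulator gene Hfe with a log2 fold change of -1.02 (edgeR adjusted p = 0.794) and the neonatal Fc receptor gene Fcgrt with 3.53 (edgeR adjusted p = 0.342). Of 14 receptor genes in the table for these ligands, 1 passed the filter, Cd8a, and Klrc1, which encodes the NKG2A chain that binds Qa-1, was at 0 in every library.

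The genes whose profiles lay nearest to a member were found by the root mean square difference of centred log2 CPM over the 8 libraries, among 11712 other genes. Nearest to H2-T23 were Wdr1 at 0.149, Ythdf2 at 0.176 and Tmem88b at 0.196 log2 units, where the median gene was at 1.14. The 4 Q genes together were nearest to Ly6e at 0.242, the classical heavy-chain gene H2-K1 at 0.250 and the complement inhibitor gene Serping1 at 0.281, with a median of 1.39. H2-M3 lay nearest to Zfp748 at 0.368, Zfp574 at 0.371 and Mum1l1 at 0.376, with a median of 1.51. The sum of H2-T10 and H2-T22 lay near Stard5 at 0.333 and Ikbkb at 0.365, with a median of 1.36.

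Promoter sequences of RefSeq on build GRCm38.p6, from 250 bases before to 50 bases after the start site, were found for 7 of the 9 genes. Both strands were searched for GAAGTGAAA, the interferon-response-like string of class I promoters, which was chosen after these promoters were read, for the general form GAAANNGAA, for the kappaB-like GGGATTCCC and for the CCAAT box as ATTGG. GAAGTGAAA was in H2-Q4, H2-Q6, H2-Q7, H2-Q10 and H2-M3, in H2-K1 and H2-D1, and in 0.505% of 32851 promoters. GAAANNGAA was in H2-T22, H2-T23 and B2m, and in 8.56% of promoters. GGGATTCCC was in H2-Q6, H2-Q7, H2-K1 and H2-D1, and in 0.353% of promoters, and ATTGG was in 37.4%. Of the pair of interferon-response-like strings, one stretch cannot match both on the same strand at the same position. The promoters of H2-Q7 and H2-T23, both high in top 3, and of H2-M3, which was not, are shown with all matches on either strand in capitals. A match is a string in this window of the C57BL/6 genome, not a shown site.
H2-Q7, chr17:35438905-35439204, plus strand: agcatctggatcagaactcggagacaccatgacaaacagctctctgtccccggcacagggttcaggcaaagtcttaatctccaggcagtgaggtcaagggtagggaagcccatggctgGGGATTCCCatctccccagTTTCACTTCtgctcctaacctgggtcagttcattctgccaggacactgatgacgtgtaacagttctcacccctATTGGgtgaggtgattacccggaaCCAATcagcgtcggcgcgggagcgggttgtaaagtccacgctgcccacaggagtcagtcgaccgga
H2-T23, chr17:36032652-36032951, minus strand: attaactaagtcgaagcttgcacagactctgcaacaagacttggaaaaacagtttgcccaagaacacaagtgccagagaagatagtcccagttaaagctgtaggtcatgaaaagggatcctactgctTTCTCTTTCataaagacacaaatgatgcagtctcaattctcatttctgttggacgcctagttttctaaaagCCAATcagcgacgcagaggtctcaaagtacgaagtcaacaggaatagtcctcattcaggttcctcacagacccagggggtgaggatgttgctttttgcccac
H2-M3, chr17:37269984-37270283, plus strand: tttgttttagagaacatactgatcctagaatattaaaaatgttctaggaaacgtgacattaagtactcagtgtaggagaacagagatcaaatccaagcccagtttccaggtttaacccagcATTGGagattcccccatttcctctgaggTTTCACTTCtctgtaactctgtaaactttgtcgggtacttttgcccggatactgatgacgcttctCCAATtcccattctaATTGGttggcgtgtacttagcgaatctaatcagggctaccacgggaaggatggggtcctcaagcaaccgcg
GAAGTGAAA is in H2-Q7, for which top 3 ranked 2 of 8 in CPM, and in H2-M3, for which top 3 ranked 7 of 8. H2-T23, for which top 3 was highest in CPM, has GAAANNGAA. The promoters shown were picked by the level in top 3, and the part of these strings in the levels was not tested.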

How the data were processed

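Per the submitters' processing notes, the authors counted reads with RSEM on mouse build mm9 and used edgeR. For versions, annotation and strand setting, the sources used here give nothing. The deposited values are RSEM expected counts per gene, of which 34.8% are not whole numbers, and the table of the whole series equals the library files. Groups and batches come from the labels. The members, sums and lists were chosen with earlier results of these data known.

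Expected counts were rounded, filtered with filterByExpr (11721 of 23366 genes kept), scaled by TMM and tested with edgeR 4.0.16 in R 4.3.3 (quasi-likelihood test, batch as covariate, Benjamini-Hochberg over all genes tested, threshold 0.05); the script was tested on simulated data. The common biological coefficient of variation was 0.806. Centred log2 CPM used a prior count of 2. Intervals are at 95%, and the count floor was 3. edgeR's quasi-likelihood test gives no SE or interval. Each SE is the coefficient fitted without the prior count, over the root of the test's F statistic. Each interval is the fitted fold change plus and minus a t quantile times that SE. It is approximate and can disagree with the p-value, above all for genes with counts of 0 such as H2-T22. Sums replaced their members as 1 row. Alternatives were RLE size factors, total counts, no filter, no batch term, DESeq2 1.42.0, limma 3.58.1 trend, each batch alone, each library left out and levels over counts other than hormones. All 9 members, the sums and the partner genes H2-K1, H2-D1, B2m, Tap1, Nlrc5 and Irf1 were to be named, with the 3 nearest genes by profile, of which some genes are not reported here; Gbp2, H2-Q8, H2-Q9, H2-T3, Calr, Hfe, Fcgrt, Cd8a and Klrc1 were named after their values were seen. Coding windows came from GENCODE M21 (GRCm38).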

Additional observations from a re-analysis of the deposited data

Results flagged for a closer look

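Top 3 lay far from the other top libraries for 4 of the 26 groups of 4 libraries examined, by the gap to the nearest library over the range of the group (Dixon's test at the 95% level); chance flags about 1 in 20 groups, and the values share reads. These were H2-Q4 at 98.9 CPM, H2-Q7 at 220 CPM, the sum of H2-Q6 and H2-Q7 at 270 CPM and the sum of the 4 Q genes at 395 CPM. Without top 3, the sum of the 4 Q genes averaged 221 CPM in bottom libraries and 69.0 CPM in top libraries, and H2-Q4 averaged 52.4 CPM in bottom libraries and 16.0 CPM in top libraries.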

How the results depend on the processing

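No member was called under any of the 16 alternatives; the smallest adjusted p of a member was 0.146, for H2-T22 with DESeq2. Of the recomputed fold changes of members and sums, 202 kept their direction and side of the threshold and 7 changed sign, and for these the cause was not tested. Levels over counts other than hormones are higher by construction, and 7 of the 18 mean levels moved by more than 1 SD: H2-T23 to 312 CPM in bottom libraries and 269 CPM in top libraries, H2-Q4 to 75.6, H2-Q6 to 51.2 and H2-T24 to 16.3 CPM in bottom libraries, and H2-T10 to 102 and H2-M3 to 69.4 CPM in top libraries. The log2 ratio of mean levels then stayed positive for all 9 genes, at 0.18 to 2.86. In batch 1 alone H2-T10 had a log2 fold change of -0.060. With one library left out, H2-T10 ranged between -0.17 without bottom 2 and 0.71 without top 3, and had -0.09 without top 4. The sum of H2-T10 and H2-T22 ranged between -0.12 without bottom 2 and 0.88 without top 3, and H2-M3 between -0.31 without bottom 4 and 0.89 without bottom 3. In batch 2 alone H2-Q4 had -0.23 and H2-Q10 -0.18, and H2-T22 could not be tested there. Against 52 genes called, there were 204 without the filter, 32 without the batch term, 589 with DESeq2, 137 with limma-trend and 2 in each batch alone. Leaving out one library gave 8 to 60 calls, with 60 without bottom 1, 33 without bottom 2, 23 without bottom 3, 11 without bottom 4, 12 without top 1, 8 without top 2, 28 without top 3 and 14 without top 4. Scaling by total counts moved the median log2 fold change of all genes to 0.34 and that of the members to 1.11. No paired analysis was possible because the number 1 is the only title number that both populations carry, once per batch, so that a block on it is the batch term over those 4 libraries. Members with few counts, H2-T22 and H2-T24, are limited by depth, and near-identical members by shared reads.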

Other observations

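H2-T3, the gene of the thymus leukemia antigen of intestinal epithelium and no member of the set above, had 408, 137, 0.782 and 2.28 CPM in bottom 1 to 4 and 23.3, 2.25, 2.04 and 18.0 CPM in top 1 to 4. A list of 7 intestinal markers summed to 13268, 3180, 39.6 and 13.1 CPM in bottom 1 to 4 and 51.3 to 841 CPM in the top libraries, so both were highest in bottom 1 and bottom 2. The part of intestinal transcripts in the H2-T3 level was not tested.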
